A study of Homo sapiens with 2 samples.

Results

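Glutathione S-transferases (GSTs) were described in single-cell RNA data of the human breast cancer cell lines MDAMB468 and CAL51, which the labels list as triple-negative. The 10 members were GSTP1 (pi class), GSTM2, GSTM3 and GSTM4 (mu class), GSTO1 (omega class), GSTA4 (alpha class), GSTK1 (kappa class) and the microsomal enzymes MGST1, MGST2 and MGST3. They are 10 of the 30796 genes in the count table and were chosen by name, after an earlier look at the same counts: the UMIs per line, above all those of GSTP1, are the measured values that selected the family. Each level and difference between the lines is therefore a description. Of the 10 members, 9 reached the minimum of 20 UMIs over both lines that 15347 genes passed, and GSTM2 did not.

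Each line was profiled as 1 library by Drop-seq, a droplet method in which the poly(A) RNA of a cell is captured on a barcoded bead and counted by unique molecular identifiers (UMIs) from the 3' end. The labels name no treatment, genotype change or separate cultures for either line. With 1 library per line there was no spread between samples, no replicate check and no test between the lines. The 95% intervals are exact and cover counting error only, so a difference outside them may still be one between 2 preparations.

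After filtering by the authors, MDAMB468 held 306 barcodes with 5501900 UMIs (median 10016.5 per barcode, from 2501 to 134213). CAL51 held 1346 barcodes with 16223444 UMIs (median 8635, from 2506 to 113702). A further 31 barcode sequences listed under CAL51 were also present under MDAMB468 and were left out of CAL51. In MDAMB468, 64 barcodes with 215868 UMIs lay 1 base from a barcode of that line with at least 5 times their UMIs, against 7 in CAL51, and these were kept. The cell type label was checked by marker genes. Summed over 7 epithelial genes, the level was 5200 CPM (UMIs of a gene scaled to a total of 1e+06 UMIs) in MDAMB468 and 2790 CPM in CAL51, where KRT18 (1555 CPM) and KRT8 (919 CPM) made up most of it. EPCAM stood at 867 and 283 CPM. The other 4 epithelial genes were far lower in CAL51, with 496 UMIs of KRT19, 34 of CLDN4, 7 of CDH1 and 0 of KRT7, against 10640, 522, 182 and 5243 in MDAMB468. The receptor genes that define the triple-negative class were low in both lines, with 3 and 0 UMIs of ESR1, 1 and 1 UMIs of PGR, and 39 and 262 UMIs of ERBB2 in MDAMB468 and CAL51. The immune genes in the table summed to 3 and 10 UMIs, and the endothelial genes to 6 and 6.

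Glutathione S-transferases join the tripeptide glutathione to electrophilic compounds, among them lipid peroxidation products and alkylating drugs, and export pumps then carry the conjugates out of the cell. The cytosolic classes are soluble dimers, the kappa enzyme sits in mitochondria and peroxisomes, and the microsomal enzymes belong to an unrelated family of membrane proteins that also makes leukotrienes and prostaglandins. GSTP1 is the main cytosolic form in many epithelial tissues and tumours, and loss of its expression with methylation of its promoter is a textbook feature of prostate cancer.

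GSTP1 (ENSG00000084207, chromosome 11, 67583595 to 67586656, plus strand, GENCODE 29 on GRCh38) was close to absent in MDAMB468 and among the most abundant transcripts of CAL51. MDAMB468 had 9 GSTP1 UMIs, or 1.64 CPM (0.748 to 3.11). CAL51 had 85390, or 5263 CPM (5228 to 5299), which was 0.526% of all its UMIs. GSTP1 ranked 3 among all genes in CAL51 and 13423 in MDAMB468. Its level was 3218-fold higher in CAL51 (1695 to 7037), and its log2 difference, MDAMB468 minus CAL51 on the log2(CPM + 1) scale used throughout, was -10.96. No other gene tested had a lower value.

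The 9 GSTP1 UMIs of MDAMB468 came from 9 barcodes with 1 each, whose totals ran from 7883 to 113667 UMIs (median 20476). Of these barcodes, 3 had a sequence that was also listed under CAL51. The 31 MDAMB468 barcodes with such a sequence were deep and held 2181232 of the 5501900 UMIs of the line. The MDAMB468 level was 0.0311% of the CAL51 level (0.0142 to 0.0590). An earlier analysis of these counts had picked 7 other genes as high in CAL51 (PDPN, VCAN, MSX1, TCEAL9, GPC3, BEX3 and APOC1), and together they stood in MDAMB468 at 0.0322% of their CAL51 level (0.0147 to 0.0610). Singly, these 7 genes had 0 to 3 UMIs in MDAMB468, or 0 to 0.0706% of their CAL51 level. They were picked for being low in MDAMB468, as GSTP1 was, so the likeness of the shares is no support for a common source. Whether free RNA carried between the libraries gave these UMIs was not tested.

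**Figure D1:**
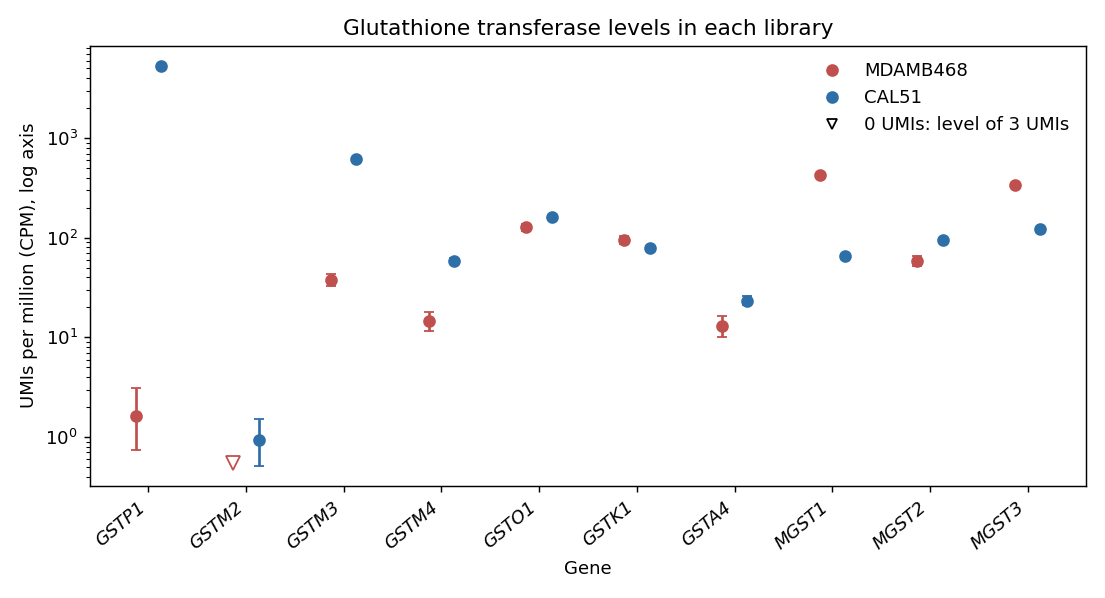
CPM (log axis) of the 10 glutathione S-transferases in MDAMB468 and CAL51, 1 library per line, with exact 95% Poisson intervals as bars and a triangle at the level of 3 UMIs for GSTM2, which had 0 UMIs in MDAMB468. GSTP1 spans from 1.64 CPM in MDAMB468 to 5263 CPM in CAL51, while MGST1 and MGST3 lie higher in MDAMB468.

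Past a 2-fold difference, 3 of the 9 members tested were higher in CAL51 (GSTP1, GSTM3 and GSTM4), where 18.6% of all genes tested were. A further 2 of 9 were higher in MDAMB468 (MGST1 and MGST3), where 15.8% of all genes tested were. Together, 5 of 9 passed in either direction, beside 34.4% of all genes tested, and the remaining 4 lay within 2-fold. The median log2 difference of the 9 members was -0.69, beside -0.13 over all genes tested. Since the members were named from this same contrast, nothing is read from these shares.

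The mu class was also carried mainly by CAL51. GSTM3 (ENSG00000134202, chromosome 1, 109733932 to 109741038, minus strand) had 206 UMIs in MDAMB468 and 9997 in CAL51. These are 37.4 CPM (32.5 to 42.9) and 616 CPM (604 to 628), a 16.5-fold higher level in CAL51 (14.3 to 19.0). GSTM3 ranked 247 among the genes of CAL51 and was the most abundant member there after GSTP1.

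GSTM4 (ENSG00000168765, chromosome 1, 109656081 to 109674836, plus strand) had 80 UMIs in MDAMB468 and 957 in CAL51, or 14.5 and 59.0 CPM, a 4.06-fold higher level in CAL51 (3.23 to 5.16). GSTM2 (ENSG00000213366, chromosome 1, 109668022 to 109709551, plus strand) had 0 UMIs in MDAMB468, with a limit of 0.545 CPM (3 UMIs) and an exact upper bound of 0.670 CPM. In CAL51 it had 15, or 0.925 CPM. Both MDAMB468 limits lie inside the CAL51 interval (0.517 to 1.52). The log2 difference of -0.94 had an exact interval of -0.94 to -0.11, which leaves out 0. It rests on 15 UMIs, under the count minimum, so its size is not resolved at this depth. The GSTM4 and GSTM2 gene models overlap on one strand. Of the 451 stretches of 50 bases in the last 500 bases of the longest GSTM4 transcript, 85 (18.8%) also occur in another mu gene, so the GSTM4 counts are uncertain by what the authors' counting assigned elsewhere. For the 9 other members, 0 of 451 such stretches were shared with another gene.

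The omega, alpha and kappa members differed far less. GSTO1 (ENSG00000148834, chromosome 10, 104235356 to 104267459, plus strand), a thiol transferase that also reduces dehydroascorbate, had 699 and 2645 UMIs, or 127 CPM in MDAMB468 (118 to 137) and 163 CPM in CAL51 (157 to 169). GSTA4 (ENSG00000170899, chromosome 6, 52977948 to 52995378, minus strand), which acts on aldehydes from lipid peroxidation, had 71 and 378 UMIs, or 12.9 and 23.3 CPM, a 1.81-fold higher level in CAL51 (1.40 to 2.36). GSTK1 (ENSG00000197448, chromosome 7, 143244093 to 143270854, plus strand) had 521 and 1269 UMIs, or 94.7 CPM in MDAMB468 (86.7 to 103) and 78.2 CPM in CAL51 (74.0 to 82.6). GSTK1 was thus 1.21-fold higher in MDAMB468 (1.09 to 1.34) and GSTO1 1.28-fold higher in CAL51 (1.18 to 1.40). Other scalings moved the median log2 difference of all genes by -0.12 (TMM factors), -0.13 (median-of-ratios factors) and 0.10 (totals without mitochondrial and ribosomal protein genes). Relative to the median of all genes tested, GSTO1 stood at -0.23, GSTK1 at 0.40 and GSTA4 at -0.68. A scaling shifts a gene and the median nearly alike, so these relative values cannot show how stable a sign is. The differences not set against the median kept their sign for all 3 genes. That of GSTK1 was 0.14, 0.13 and 0.38 under the scalings in the order above.

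Among the microsomal enzymes, 2 of 3 were higher in MDAMB468. MGST1 (ENSG00000008394, chromosome 12, 16347142 to 16609259, plus strand), which detoxifies lipid hydroperoxides in the endoplasmic reticulum and outer mitochondrial membrane, had 2327 UMIs in MDAMB468 and 1060 in CAL51. Its level was 423 CPM (406 to 440) against 65.3 CPM (61.5 to 69.4), a 6.47-fold higher level in MDAMB468 (6.02 to 6.97). MGST1 was the most abundant member in MDAMB468, at rank 343 of all genes.

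MGST3 (ENSG00000143198, chromosome 1, 165630861 to 165661796, plus strand), a glutathione transferase and peroxidase, had 1876 and 2000 UMIs. Its level was 341 CPM in MDAMB468 (326 to 357) and 123 CPM in CAL51 (118 to 129), a 2.77-fold higher level in MDAMB468 (2.60 to 2.95). MGST2 (ENSG00000085871, chromosome 4, 139665768 to 139740745, plus strand), which can make a leukotriene from glutathione, went the other way. It had 322 and 1542 UMIs, or 58.5 and 95.05 CPM, a 1.62-fold higher level in CAL51 (1.44 to 1.84).

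The order of the members by level thus differed between the lines, as the plot of levels shows. From the top it ran MGST1, MGST3, GSTO1, GSTK1, MGST2, GSTM3, GSTM4, GSTA4, GSTP1 and GSTM2 in MDAMB468. In CAL51 it ran GSTP1, GSTM3, GSTO1, MGST3, MGST2, GSTK1, MGST1, GSTM4, GSTA4 and GSTM2. In MDAMB468 the intervals of GSTM4 and GSTA4 overlapped, as did those of MGST1 and GSTM4 in CAL51 (61.5 to 69.4 and 55.3 to 62.8 CPM). The other neighbours in either order did not overlap in counting error. UMIs from 3' ends are not divided by gene length, but capture may differ between genes, so these orders are of UMIs and not of molecules per cell.

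The sums over the family were used to ask whether other members made up for the missing GSTP1 in MDAMB468. All 10 members together reached 1111 CPM in MDAMB468 (1083 to 1139) and 6488 CPM in CAL51 (6449 to 6527). GSTP1 made up 0.147% of the members' UMIs in MDAMB468 and 81.1% in CAL51. Without GSTP1, the 9 others summed to 1109 CPM in MDAMB468 (1081 to 1137) and 1224 CPM in CAL51 (1207 to 1241). By sum, the 9 others were therefore no higher in MDAMB468 than in CAL51, and their difference of -115 CPM is -2.19% of the GSTP1 gap. That direction rests on GSTM3: the 8 members without GSTP1 and GSTM3 summed to 1072 CPM in MDAMB468 and 608 CPM in CAL51, and their difference was 463 CPM, beside -5262 CPM for GSTP1.

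**Figure D2:**
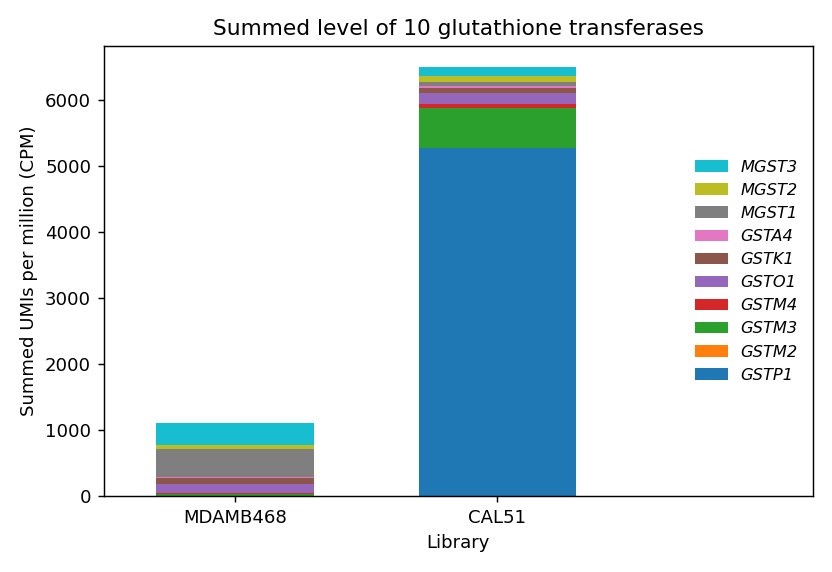
Summed CPM of the glutathione S-transferases in MDAMB468 and CAL51, stacked by member, 1 library per line. The members other than GSTP1 reach 1109 CPM in MDAMB468 and 1224 CPM in CAL51, and GSTP1 adds 5263 CPM in CAL51.

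The make-up of that near-equal remainder differed by class. The 3 microsomal members summed to 822 CPM in MDAMB468 (799 to 847) and 284 CPM in CAL51 (276 to 292), or 74.0% and 4.37% of the members' UMIs. The 5 soluble cytosolic members other than GSTP1 summed to 192 CPM in MDAMB468 (181 to 204) and 862 CPM in CAL51 (848 to 877), most of it GSTM3. The 3 members that were higher in MDAMB468 (GSTK1, MGST1 and MGST3) exceeded their CAL51 sum by 592 CPM, which is 11.2% of the GSTP1 gap in UMIs. Transcript sums do not give enzyme activity, since the members differ in their substrates.

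In CAL51, GSTP1 was found in each of the 1346 barcodes, with 2 to 658 UMIs (median 44). Per barcode, its level ran from 775 to 21382 CPM with a median of 5074, and the middle 50% of barcodes lay between 3493 and 6824 CPM. In 4 equal groups of barcodes from the shallowest to the deepest, the summed level was 5732, 5708, 5204 and 5096 CPM, lower in the deeper groups. Before thinning, each CAL51 barcode thus held GSTP1, whereas in MDAMB468 GSTP1 had a UMI in 9 of 306 barcodes (2.94%, 1.35 to 5.51, median depth 10016.5 UMIs).

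To compare barcodes at equal depth, each was thinned to 2500 UMIs, which all barcodes of both lines reached. In CAL51, GSTP1 then had 0 to 56 UMIs per barcode with a mean of 13.6, an SD over barcodes of 7.34 and at least 1 UMI in 1345 of 1346 barcodes (99.9%). In MDAMB468, 1 of 306 barcodes had a UMI (0.327%, 0.01 to 1.81). The histogram of thinned counts shows 1 broad peak in CAL51, in which 10% of barcodes had 5 or fewer UMIs and 10% had 23 or more.

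**Figure D3:**
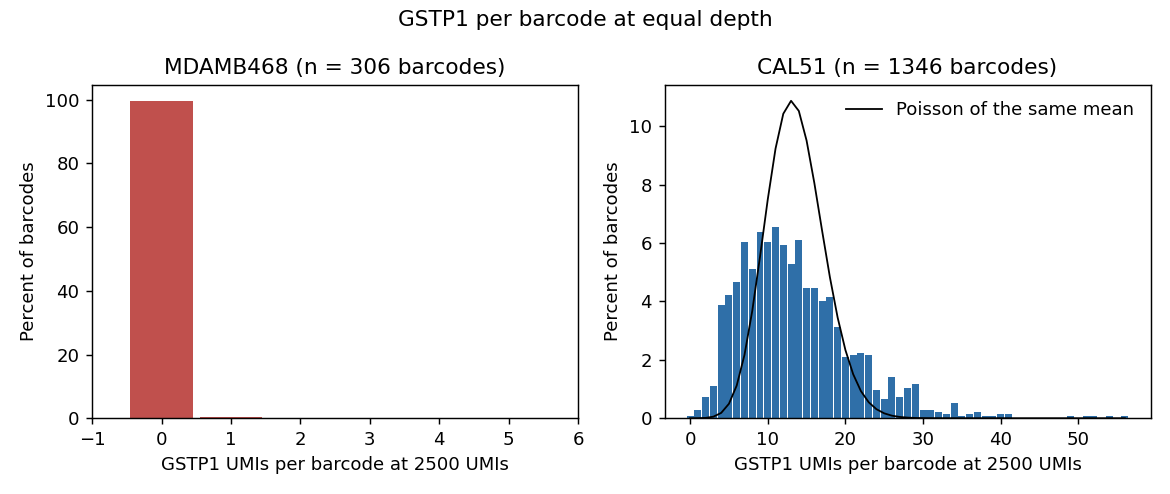
Share of barcodes (percent) by GSTP1 UMIs per barcode after thinning each barcode to 2500 UMIs, for MDAMB468 (306 barcodes) and CAL51 (1346 barcodes), 1 library per line, with a line for a Poisson count of the CAL51 mean. CAL51 barcodes spread from 0 to 56 UMIs around a median of 12, while 1 MDAMB468 barcode has a UMI.

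The spread of GSTP1 exceeded counting noise. Its Fano factor (variance over mean, which is 1 for pure counting noise) was 3.98 in CAL51. Over the 9 genes of CAL51 with a mean within 1.5 times that of GSTP1, the median Fano factor was 2.06, and 2 of them were above GSTP1. The Fano factor of a broadly spread gene grows with the number of UMIs kept, so the excess was also expressed per squared mean. It was 0.223, 0.220 and 0.195 at 1000, 2500 and 5000 UMIs per barcode. The value at 5000 UMIs is from the 1071 CAL51 barcodes that reached that depth, with 275 left out, so it is not from the same set.

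GSTM3 varied more than most genes of its level in CAL51. Its mean was 1.54 UMIs with a range of 0 to 12 and a Fano factor of 1.61, above the median of 1.13 over 222 genes of like mean, of which 19 were higher. GSTM3 had a UMI in 69.4% of CAL51 barcodes (66.9 to 71.8, and 91.2% before thinning), where a Poisson count of that mean gives 78.6%. In MDAMB468 the share was 10.5% (7.26 to 14.4, and 38.6% before thinning). Its excess variance per squared mean in CAL51 was 0.395, above that of GSTP1.

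MGST1 and MGST3 were spread over most MDAMB468 barcodes. MGST1 had a UMI in 65.0% of them at equal depth (59.4 to 70.4, and 91.8% before thinning) against 14.3% in CAL51 (12.4 to 16.2, and 39.5% before thinning). MGST3 had a UMI in 64.7% (59.1 to 70.1, and 90.5% before thinning) against 27.6% (25.2 to 30.03, and 66.1% before thinning). With another random draw of the thinning, MGST3 had a UMI in 58.2% of MDAMB468 barcodes, below that interval, and in 25.2% of CAL51 barcodes. The Fano factor of MGST1 in MDAMB468 was 1.20, where 281 genes of like mean had a median of 1.10 and 57 were higher, and it was 1.05 without the barcodes 1 base from a larger one. That of MGST3 was 0.875, and 1.09 without them, but another random draw of the thinning alone moved it to 0.981. In CAL51, at a mean of 0.169 UMIs, the Fano factor of MGST1 was 1.18, where 1946 genes of like mean had a median of 1.05 and 76 were higher. It was 1.10 with another random draw of the thinning and 1.11 without the barcodes 1 base from a larger one. At 1000 and 5000 UMIs per barcode it was 0.976 and 1.15 (the latter over 1071 barcodes), so this excess is not a stable one. The difference of MGST1 and MGST3 between the lines was thus seen over many barcodes rather than a few.

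The other members were sparse at this depth. GSTO1 had a UMI in 30.7% of MDAMB468 and 34.9% of CAL51 barcodes, GSTK1 in 20.6% and 16.9%, and MGST2 in 14.1% and 20.8%. Without the barcodes 1 base from a larger one, the shares were 23.6% and 34.6% for GSTO1 and 16.5% and 17.3% for GSTK1. Another random draw gave 23.5% and 17.8% for GSTK1, so which line had the larger share of barcodes with GSTK1 is not resolved. GSTM4 was found in 2.61% and 12.9%, and GSTA4 in 2.61% and 6.24%. GSTM2 was found in 0 of 306 MDAMB468 barcodes, with a limit of 0.980% (3 of 306) and an exact upper bound of 1.20%, and in 0.149% of CAL51. The Fano factors of GSTO1, GSTK1, MGST2, GSTM4 and GSTA4 lay between 0.952 and 1.10 in both lines, beside medians of 1.04 over 6001 genes in MDAMB468 and 1.06 over 6404 genes in CAL51.

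**Figure D4:**
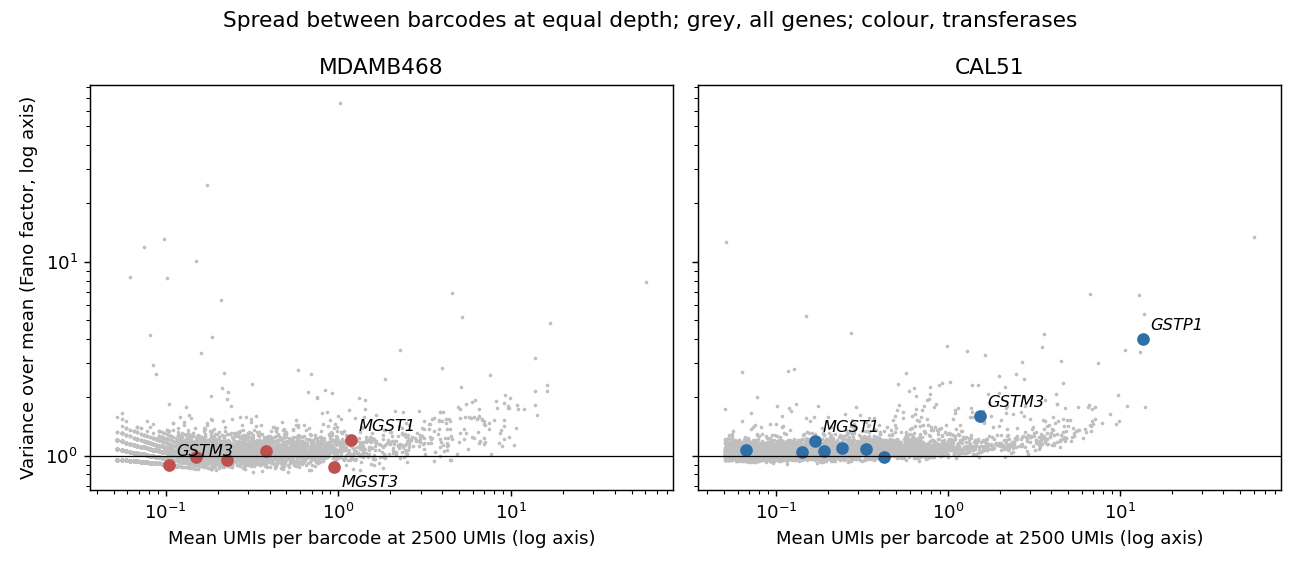
Fano factor (variance over mean, log axis) against mean UMIs per barcode (log axis) after thinning to 2500 UMIs, for genes with a mean of at least 0.05 (grey) and the glutathione S-transferases (coloured), 1 panel per line. GSTP1 at 3.98 and GSTM3 at 1.61 lie above most CAL51 genes of like mean, as does MGST1 at 1.18. In MDAMB468, MGST1 at 1.20 lies above most. All values are from 1 random draw of the thinning, and those of MGST1 move with the draw.

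Within CAL51, barcodes were clustered without the 10 members, and GSTP1 differed between the 4 clusters. It was lowest at 4490 CPM (4436 to 4544) in the 508 barcodes led by COL2A1, H1-3 and H1-5, a collagen and linker histones. It was 5169 CPM (5105 to 5233) in the 311 barcodes led by PIF1, CENPE and PSRC1, which act at DNA and the mitotic spindle. It was highest at 6488 CPM (6399 to 6579) in the 285 barcodes led by IFIT2, IFIT1 and ANKRD1, of which the first pair are interferon-induced. It was 5789 CPM (5692 to 5887) in the 242 barcodes led by TSTD1, COL1A2 and CD24. The highest was 1.45 times the lowest.

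The same clusters differed in depth, with median totals of 9028.5, 11787, 7151 and 7251 UMIs per barcode in the order above, and the part of depth in the GSTP1 levels was not tested. GSTM3 stood at 494, 639, 727 and 731 CPM in the same order, and GSTK1 at 63.5, 73.3, 92.7 and 106 CPM. GSTM3, GSTM4, GSTK1 and MGST3 (111 to 143 CPM) were lowest in the cluster where GSTP1 was lowest. GSTO1 (154 to 181 CPM) and MGST1 (58.9 to 82.5 CPM) were lowest in the cluster led by PIF1, and MGST2 (85.5 to 108 CPM) and GSTA4 (19.1 to 27.0 CPM) in that led by TSTD1. For GSTM3 the interval of the lowest cluster (476 to 512 CPM) lay apart from that of the next (617 to 662 CPM). For GSTM4, GSTK1, MGST3, GSTO1, MGST1, MGST2 and GSTA4 the intervals of the lowest and the next cluster overlapped, so which cluster was lowest is not resolved. Clusters of 1 library are not replicates, and no test was made between them.

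The genes whose counts followed GSTP1 most closely over the 1346 CAL51 barcodes were sought among 818 genes with a mean of at least 0.5 UMIs at equal depth. They were FTH1 (Pearson r = 0.32), which encodes the ferritin heavy chain, PLAAT3 (0.29), a phospholipase, PRDX1 (0.26), a peroxiredoxin, COX6C (0.24), a subunit of cytochrome c oxidase, and PDPN (0.24), the glycoprotein podoplanin. The lowest values were those of MYH10 (-0.25), a non-muscle myosin, GPC3 (-0.18), a glypican, and VCAN (-0.17), a matrix proteoglycan. All of these barcodes share 1 library, and the values are weak descriptions with no test. Of the 5 genes, 3 were also among the first 5 at 1000 UMIs and 4 at 5000 UMIs per barcode, the latter over 1071 barcodes.

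The other members followed GSTP1 less. Their correlations with it in CAL51 lay between -0.05 (GSTA4) and 0.12 (GSTM3), with GSTK1 at 0.10. In MDAMB468, correlations with MGST1 lay between -0.07 and 0.12 (MGST2). In CAL51, GSTM3 at a mean of 1.54 UMIs passed the minimum of 0.5 UMIs set for the genes searched above. The members other than GSTP1 and GSTM3 were sparser and did not, so their values are not like for like with those genes. Neither range is a finding.

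The rest of the family was read from a list of 16 further genes, of which 11 were in the table and 5 reached the count minimum. Of these 5, 1 was higher in MDAMB468 past 2-fold, beside 15.8% of all genes tested, and 2 in CAL51, beside 18.6%. PTGES, a prostaglandin synthase of the membrane family, had 211 UMIs in MDAMB468 and 121 in CAL51, 5.14-fold higher in MDAMB468 (4.09 to 6.48). GSTO2, the tandem neighbour of GSTO1, had 3 and 967 UMIs, 109-fold higher in CAL51 (37.3 to 531). GSTCD, which carries a GST-like domain, had 60 and 482 UMIs, 2.72-fold higher in CAL51 (2.08 to 3.63). GSTM1 had 3 and 8 UMIs, and the processed pseudogene GSTP1P1 had 0 and 3. The 11 genes summed to 70.5 CPM in MDAMB468 and 116 CPM in CAL51 with GSTO2, and to 70.0 and 56.2 CPM without it, so the direction of this sum rests on GSTO2.

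GSTs need glutathione, and the genes that make, use and clear it were described by counts of genes past 2-fold. Beside these counts stand the shares over all genes tested, 15.8% for MDAMB468 and 18.6% for CAL51, and no list is read as standing apart from them. Of 8 synthesis genes, 0 were higher in MDAMB468 and 2 in CAL51, with a median log2 difference of -0.42. CTH, which makes the cysteine for glutathione, was lowest with 5 UMIs in MDAMB468 and 1237 in CAL51 (83.9-fold higher in CAL51, 35.9 to 259). The amino acid transporter SLC1A5 was highest at 0.76.

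Of 10 turnover genes, 3 were higher in MDAMB468 and 3 in CAL51. ANPEP, a surface peptidase that cleaves the dipeptide left from glutathione, had 170 UMIs in MDAMB468 and 1 in CAL51 (501-fold, 88.8 to 19914), and OPLAH, which recycles oxoproline, had 1 and 73. Of 11 glutathione redox genes, 3 were higher in each line. The glutaredoxin GLRX had 121 and 73 UMIs, 4.89-fold higher in MDAMB468 (3.63 to 6.63). GPX7, a peroxidase of the endoplasmic reticulum, had 0 and 1681, a level 190-fold higher in CAL51 if 3 UMIs stand in for the 0. Its exact upper bound in MDAMB468 was 0.670 CPM, beside 104 CPM in CAL51.

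Of 6 conjugate exporters, 1 was higher in each line, with ABCC3 at 1.10 and ABCC4 at -1.38 on the log2 scale. Of the 2 glyoxalase genes that passed the minimum, which clear methylglyoxal with glutathione, GLO1 stood at -0.11 and HAGH at -1.68.

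The genes around GSTP1 on chromosome 11 were read to see whether the difference extended along the chromosome. Distances were taken from its first base to the lowest coordinate of each gene, which is the end of a minus-strand gene. There were 22 neighbours tested between -464 and 469 kb, with a median of 0.52. Of these, 17 lay within 2-fold, 4 were higher in MDAMB468 and 1 in CAL51. Over all genes tested, 15.8% were higher in MDAMB468 and 18.6% in CAL51, with a median of -0.13. NDUFV1, a subunit of respiratory complex I at 22.1 kb, stood at 0.37. CDK2AP2, at -77.1 kb, was the lowest of the 22 at -1.33, with 476 and 3558 UMIs. ALDH3B2, an aldehyde dehydrogenase, was the highest at 6.07, with 388 UMIs in MDAMB468 and 1 in CAL51. GSTP1 at -10.96 was the lowest of all 15347 genes tested. Its place below each neighbour was thus fixed in advance and is no result about the region.

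**Figure D5:**
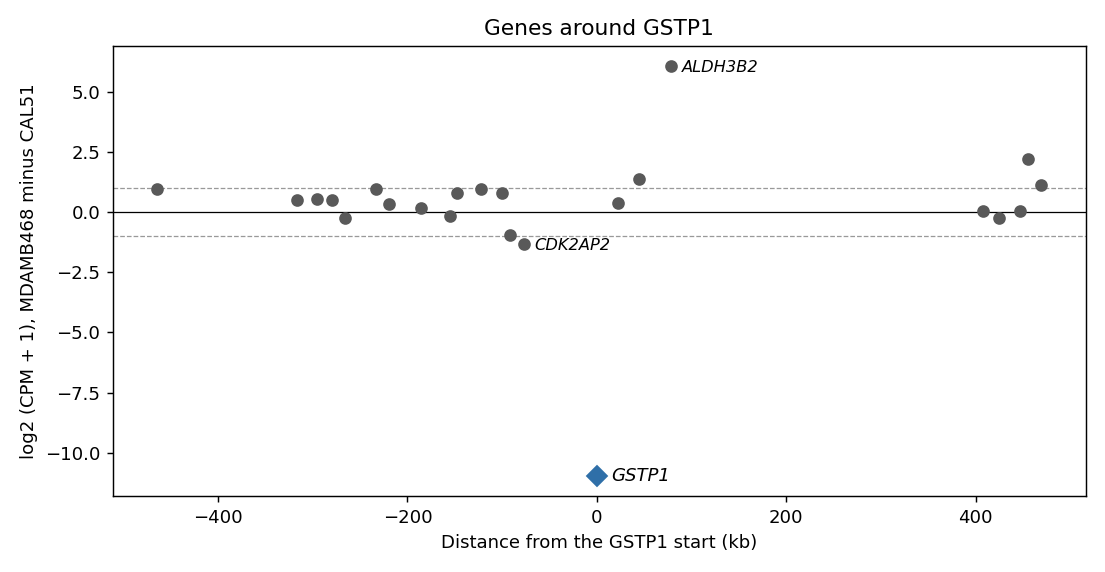
Log2 difference of CPM + 1, MDAMB468 minus CAL51, for genes tested around GSTP1, 1 library per line, with dashed lines at a 2-fold difference. The horizontal axis is the distance of each gene's lowest coordinate from that of GSTP1 (kb). Of 22 neighbours, 17 lie within 2-fold, where 34.4% of all genes tested lie past it. GSTP1, the lowest of all genes tested, lies at -10.96.

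Promoter sequence was compared because members of the family differ in known control elements: the antioxidant response element, bound by NRF2, drives many detoxification genes. Promoters came from RefSeq on GRCh38.p14 for 9 of the 10 members, with 3 entries for MGST1. RefSeq starts can differ from the ends of the GENCODE gene models given above, which span all transcripts of a gene. The RefSeq start is base 67583812 for GSTP1, 104254892 for GSTO1 and 52995284 for GSTA4, each inside its GENCODE model. The windows printed below for these genes thus lie before the RefSeq start but within the GENCODE gene. For some members, among them GSTP1 and GSTA4, the full 250 bases searched reach outside that model. The 250 bases before the GSTP1 RefSeq start held 28 CpG pairs, more than in 84.1% of 35116 promoters, which had a median of 11. GSTM3 had 1, GSTA4 11, GSTM2 and GSTO1 14 each, GSTK1 15, MGST3 16, GSTM4 18, and the MGST1 entries 3, 12 and 19. The core of the antioxidant element was searched as TGACNNNGC on both strands, and 10.9% of all promoters held it. It was found in GSTP1, GSTO1 and GSTA4. The GSTA4 match ends at the last base before the RefSeq start, so its window holds flanking bases on the left only. The windows follow with the match in capitals, and for GSTP1 and GSTO1 with 10 bases before it and 11 after.
GSTP1, chr11:67583736-67583765, plus strand, 58 to 66 bases before the RefSeq start: gccggcgccgTGACTCAGCactggggcgga
GSTO1, chr10:104254656-104254685, plus strand, 218 to 226 bases before the RefSeq start: ggcggagggaTGACTGAGCatttataactt
GSTO1, chr10:104254721-104254750, plus strand, 153 to 161 bases before the RefSeq start: cgagatgcttTGACACAGCcccttaagatg
GSTA4, chr6:52995285-52995314, minus strand, 1 to 9 bases before the RefSeq start: gtctcacccagccgggaccgcTGACCTGGC
The GSTP1 match overlaps TGACTCA, the AP-1 motif that 4.20% of promoters held. GSTP1 differed 3218-fold between the lines and GSTO1 1.28-fold, so a match was present in members with a large and with a small difference. The counts hold no methylation or binding data, and a match is a description of these letters and not a site or a cause.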

How the data were processed

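Counts were deposited by the authors as 1 matrix of whole UMI counts, genes by barcodes, with the cell line in the barcode prefix. STARsolo was used per the submitters' processing notes, with version, build and annotation not given in the sources used here. Gene positions came from GENCODE 29, joined by Ensembl ID. The 10 members and all lists were chosen with earlier results of these data known.

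UMIs were summed per line and given as CPM. Fold intervals were exact and conditional on the summed count, with levels by Poisson and shares by Clopper-Pearson intervals (95%). Doublets were not removed, and no doublet caller was run. The deposited barcodes all had at least 2501 UMIs, and no further filter was set. Log2 values used a pseudocount of 1 CPM. Members were named in every comparison, as were the highest and lowest tested gene of each list, the 5 highest and 3 lowest correlations with GSTP1, and 3 leading genes per cluster. GSTM1, GSTP1P1, NDUFV1, ERBB2, ESR1, PGR and KRT7 were named in addition. Clustering used scanpy 1.11.5 and leidenalg 0.10.2 (2000 variable genes, 30 principal components, 15 neighbours, resolution 0.5). Scaling alternatives used edgeR 4.0.16 and DESeq2 1.42.0 in R 4.3.3 for factors only, and other steps Python 3.11.15. The steps were tested on simulated data.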

Additional observations from a re-analysis of the deposited data

Results flagged for a closer look

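The 31 barcode sequences left out of CAL51 because they also occur under MDAMB468 carried a GSTP1 signal that the comparisons do not use. They held 310 GSTP1 UMIs in 135240 UMIs, or 2292 CPM, which is 43.6% of the level in the CAL51 barcodes used. The 31 MDAMB468 barcodes of the same sequences held 3 GSTP1 UMIs in 2181232 UMIs, or 1.38 CPM. MGST1, the member highest in MDAMB468, stood at 318 CPM in the 31 CAL51 barcodes and at 405 CPM in their MDAMB468 counterparts, beside 65.3 CPM in the CAL51 barcodes used. MGST3 stood at 259 and 287 CPM, and GSTM3 at 251 and 31.6 CPM. These 4 genes lay between the levels of the lines in the 31 CAL51 barcodes, as did GSTM4 at 37.0 CPM and MGST2 at 59.2 CPM. GSTO1 at 214 CPM and GSTK1 at 155 CPM lay above both lines, and GSTA4 at 7.39 CPM (1 UMI) below both, while GSTM2 had 0 UMIs. The members other than GSTP1 rest on at most 43 UMIs each, and the reason was not tested.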

How the results depend on the processing

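Each of the 10 members kept the sign of its difference in all 8 alternatives run (shared sequences kept, barcodes 1 base from a larger one left out, TMM factors, median-of-ratios factors, totals without mitochondrial and ribosomal protein genes, mean over barcodes, pseudocounts of 0.1 and 10 CPM). A change of pseudocount cannot turn a sign. GSTM2 had 0 UMIs in MDAMB468, so its sign could not turn in any of these settings. Those outcomes were fixed in advance and show no stability. GSTP1 stood at -11.57 with a pseudocount of 0.1 and -8.82 with 10. GSTA4 passed 2-fold in 1 of the 8, and GSTM2, which is under the count minimum, in 3. The sum of the 10 members in MDAMB468 and CAL51 was 1061 and 6792 CPM with TMM factors, 1056 and 6821 with median-of-ratios factors, 1447 and 7824 without mitochondrial and ribosomal protein genes, and 1217 and 6689 as a mean over barcodes. For the 9 members other than GSTP1 these were 1059 and 1282, 1055 and 1287, 1445 and 1476, and 1216 and 1231. CAL51 thus stayed higher in each, by as little as the last pair. Leaving out GSTM3, chosen after seeing the data, turned the difference of the 9 others, MDAMB468 minus CAL51, from -115 to 463 CPM, and leaving out GSTO2 turned that of the 11 further genes from -45.2 to 13.8 CPM. Genes past 2-fold numbered 1046 in MDAMB468 and 1146 in CAL51 with a pseudocount of 10, and 1337 in MDAMB468 with a minimum of 100 UMIs. The Fano factor of GSTP1 in CAL51 was 2.21 at 1000 and 6.21 at 5000 UMIs per barcode, the latter over 1071 barcodes. Its lowest and highest cluster levels were 3338 and 6663 CPM at resolution 1, 5090 and 5880.0 at resolution 0.3, and 3562 and 6273 with 15 principal components. The cause of these shifts was not tested. No paired analysis was possible because each line has 1 library. Depth limits GSTM2, GSTP1 in MDAMB468 and the shares of the sparse members.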
